A study of Homo sapiens with 414 samples.

Results

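U0126, an inhibitor of the kinases MEK1 and MEK2, was set directly against PD166866, an inhibitor of the FGF receptor tyrosine kinases, in H1-NPC cells, neural progenitors made from H1, an established line of human embryonic stem cells. All libraries labelled with either compound were taken, 10 of U0126 and 10 of PD166866 among the 414 libraries of the series, and the 18 libraries of the 9 days on which both compounds had one (days 1, 2, 3, 4, 6, 10, 15, 27 and 39) were paired by day. U0126 was used at 10 µM and PD166866 at 2.5 µM. Each compound had 1 dose, so compound and dose cannot be told apart. Both compounds carry the label toxic. The cells had been expanded with FGF2 for 5 days, seeded into a medium listed without FGF2 and exposed from the day of seeding, so all groups compared here, the non-toxic one included, grew without added FGF2 from then on. The comparison groups outside the pair are the 127 libraries labelled non-toxic on the same 9 days, 7 to 16 a day, from 16 compounds including DMSO. There was 1 well per compound and day. Days were therefore the only replicates, and a difference had to recur over days of the culture to be called.

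FGF receptors are tyrosine kinases that pass their signal, among other routes, through RAS and RAF to MEK and from MEK to ERK. In the nucleus ERK phosphorylates ETS factors, among them partners of serum response factor. ERK in turn induces its own brakes, the Sprouty and DUSP proteins, so transcripts such as SPRY4, DUSP6 and ETV5 are used as a readout of the pathway, and EGR1 is its textbook immediate early target. U0126 acts on MEK and so below all receptors that use it, whereas PD166866 acts on 1 receptor family but on every branch behind it. A separate route, the integrated stress response, raises the translation of the transcription factor ATF4 when amino acids are short or the endoplasmic reticulum is stressed, and ATF4 switches on amino acid transport, serine and asparagine synthesis and tRNA charging. SLC7A11, the cystine import subunit of the cystine and glutamate exchanger, is a target of ATF4 and of the oxidative stress factor NRF2.

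The reference promoters of genes that carry the comparison are shown first, because the letters they hold for these factors can be read from them. They are RefSeq promoters of GRCh38.p14, each 300 bases from 250 before to 50 after the annotated start, 5′ to 3′ on the strand of the gene. Capitals mark the ATF4 site core (TGATGNAA, either strand) in the first 3 and the CArG box of serum response factor in the fourth. ASNS lies at chr7:97872359-97872658 on the minus strand, CHAC1 at chr15:40953221-40953520 on the plus strand, SLC7A1 at chr13:29595639-29595938 on the minus strand and EGR1 at chr5:138465229-138465528 on the plus strand.
ASNS: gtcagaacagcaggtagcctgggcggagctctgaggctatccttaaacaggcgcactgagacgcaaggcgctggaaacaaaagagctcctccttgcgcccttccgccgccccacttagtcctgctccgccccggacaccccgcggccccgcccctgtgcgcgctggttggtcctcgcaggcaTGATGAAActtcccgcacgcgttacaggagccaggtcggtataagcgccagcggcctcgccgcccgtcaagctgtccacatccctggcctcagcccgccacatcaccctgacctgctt
CHAC1: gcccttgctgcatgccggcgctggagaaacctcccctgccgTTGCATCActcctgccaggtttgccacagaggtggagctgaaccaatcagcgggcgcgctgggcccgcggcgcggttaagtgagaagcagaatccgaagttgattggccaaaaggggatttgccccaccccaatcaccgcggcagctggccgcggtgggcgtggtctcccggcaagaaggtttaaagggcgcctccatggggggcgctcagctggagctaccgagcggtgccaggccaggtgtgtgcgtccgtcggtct
SLC7A1: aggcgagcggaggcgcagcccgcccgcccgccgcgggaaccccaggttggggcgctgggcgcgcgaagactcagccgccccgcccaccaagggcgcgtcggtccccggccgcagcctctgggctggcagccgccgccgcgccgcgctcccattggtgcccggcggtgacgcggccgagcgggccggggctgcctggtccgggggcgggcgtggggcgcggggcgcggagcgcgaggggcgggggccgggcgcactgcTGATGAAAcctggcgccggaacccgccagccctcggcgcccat
EGR1: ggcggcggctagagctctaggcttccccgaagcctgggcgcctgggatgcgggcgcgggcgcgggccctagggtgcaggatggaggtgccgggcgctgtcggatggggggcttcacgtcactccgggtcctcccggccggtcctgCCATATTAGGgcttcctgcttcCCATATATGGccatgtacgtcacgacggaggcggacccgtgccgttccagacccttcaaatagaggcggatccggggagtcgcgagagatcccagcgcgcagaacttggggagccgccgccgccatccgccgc
The core begins 68 bases before the start in ASNS, 209 before it in CHAC1, on the opposite strand, and 7 after it in SLC7A1. EGR1 holds 2 CArG boxes, 105 and 83 bases before the start. Of all 35116 promoter entries, 3.6% held the ATF4 core and 1.3% a CArG box. Of 23 measured genes of the ATF4 list described below, 19 had an entry. Of these, 6 held the core in at least 1 entry (ASNS, ATF3, CEBPG, CHAC1, SLC3A2 and SLC7A1). This counts genes, whereas the 3.6% counts single entries, so the shares are not alike. ASNS, ATF3 and CEBPG have 2 entries each and SLC3A2 has 3, with the core in 1 of them. The ASNS entry printed is the one with the core. The core was found in 3 of the 10 genes with an entry that were lower under U0126. The SPRY4 entry did not hold CCGGAA, 1 form of the ETS factor site, on either strand (17.2% of all entries did). Shorter forms of the ETS site were not searched for. SLC7A11 had no entry.

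SPRY4, EGR1 and SLC7A11 were all lower under U0126 than under PD166866, but stood on different sides of the non-toxic level. Expression is given as TPM, a share of the library's transcripts corrected for transcript length. SPRY4, the Sprouty inhibitor of receptor tyrosine kinase signalling, ranged from 0.26 over a median of 1.89 to 4.80 TPM under U0126 and from 1.56 over 4.42 to 10.52 TPM under PD166866. The ranges overlapped across days, and within days U0126 was the lower of the pair on 9 of 9. The mean paired difference of SPRY4 was -1.09 ± 0.32 on the log2(TPM + 1) scale (SD, n = 9 days), with an exact two-sided sign-flip permutation p of 0.003906, the smallest that 9 pairs can give. In limma, the linear model fitted over all genes with day as a factor, its Benjamini-Hochberg adjusted p was 0.00102. U0126 lay below the whole non-toxic range for SPRY4 on 9 days and PD166866 on 2.

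EGR1, a zinc finger transcription factor, showed the same order with more spread. Under U0126 it ranged from 1.04 over a median of 2.13 to 3.32 TPM, and under PD166866 from 1.55 over 5.43 to 59.96 TPM. The 59.96 TPM came from day 39, when U0126 had 3.32 TPM and the non-toxic libraries 23.1 to 36.1 TPM. U0126 was lower for EGR1 on 8 of 9 days, with day 4 the exception at 2.95 against 1.55 TPM. The mean difference of EGR1 was -1.17 ± 1.25 (SD, n = 9 days; exact sign-flip permutation p = 0.01172), and its limma adjusted p over all genes was 0.172, so it was not called. EGR1 was below the non-toxic range on 9 days under U0126 and on 4 under PD166866, which was above it on 1.

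SLC7A11 separated the compounds the other way about the non-toxic level. It ranged from 2.36 over a median of 4.10 to 10.72 TPM under U0126 and from 9.34 over 13.23 to 30.09 TPM under PD166866. The difference of SLC7A11 was -1.55 ± 0.47 (SD, n = 9 days), lower on 9 of 9 days, with the same smallest exact sign-flip permutation p of 0.003906 and a limma adjusted p of 0.000816. PD166866 was above the non-toxic range for SLC7A11 on all 9 days. U0126 was above it on 1 day, below it on 3 and inside it on the rest.

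**Figure D1:**
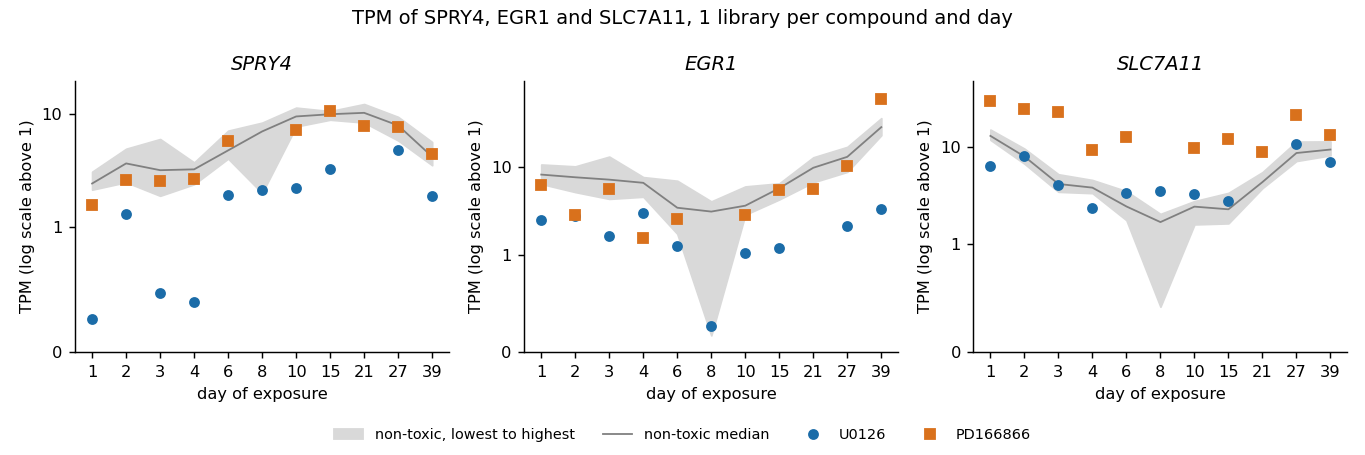
TPM of SPRY4, EGR1 and SLC7A11 (y axis, linear below 1 and logarithmic above) by day of exposure (x axis, days equally spaced), with 1 point per library: circles are U0126, squares PD166866, the grey band runs from the lowest to the highest non-toxic library and the line is their median. U0126 lies under the band for SPRY4 and EGR1 on the 9 shared days, and PD166866 lies above it for SLC7A11 on the same days.

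Over the 16318 genes tested, 172 (1.05%) differed between the inhibitors at an adjusted limma p under 0.05, 152 of them lower under U0126 (0.931%) and 20 higher (0.123%). The median difference over all tested genes was -0.072.  By the naming rule the 10 largest among genes lower under U0126 were the matrix proteoglycans BGN and DCN, the collagens COL3A1 and COL6A3, ISLR, a membrane protein of mesenchymal stromal cells, the secreted IGFBP7, SLC7A11 and CHAC1 of the ATF4 list, and PCK2 and ADM2. Their differences ran from -1.99 for BGN to -1.35 for ADM2. The 10 largest among genes higher under U0126 were smaller in size, from 0.35 for SAT1 to 0.97 for SIX2. Leaving out 1 day at a time moved the total to between 77 (without day 15) and 333 (without day 10), and it stood at 98 without day 1, 88 without day 2, 99 without day 3, 114 without day 6, 87 without day 27 and 89 without day 39.

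The ATF4 and amino acid response list, 23 genes all measured, held the most called genes of the lists. Of these, 13 were lower under U0126 than under PD166866, 0 were higher and 10 did not pass, against 0.931% of all genes called lower. The list median was -0.64 beside -0.072 over all tested genes, and all 23 estimates were below 0. Summed over the list, U0126 libraries held 1513 to 1820 TPM and PD166866 libraries 2098 to 2768 TPM, ranges that did not overlap. On single days, 20 to 23 of the 23 genes were lower under U0126.

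Among the enzymes of serine synthesis, PHGDH, which catalyses the first step, ran from 69.3 over a median of 126.9 to 260.4 TPM under U0126 and from 209.3 over 248.1 to 448.8 TPM under PD166866. PHGDH was lower under U0126 on every shared day, by -1.07 (SE 0.10, limma adjusted p = 0.000816). PSAT1, the second enzyme, ran from 105.4 to 185.7 TPM against 162.9 to 268.3 TPM, a difference of -0.64 (SE 0.05, limma adjusted p = 0.000498). PSPH, the last enzyme, had the smallest difference of the 3 at -0.41, and its ranges did not touch, 35.5 to 43.5 TPM under U0126 and 44.7 to 60.1 TPM under PD166866. The mitochondrial enzymes that pass one-carbon units on from serine were lower as well. SHMT2 differed by -0.78 and MTHFD2 by -0.998, with MTHFD2 at 12.9 to 27.5 TPM under U0126 and 32.1 to 67.6 TPM under PD166866, again apart.

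ASNS, asparagine synthetase, was also apart, at 65.4 over a median of 95.0 to 116.0 TPM under U0126 and 121.0 over 159.0 to 191.6 TPM under PD166866. Its difference was -0.83 (SE 0.11, limma adjusted p = 0.00715). The ATF4 core lies in 1 of the 2 promoter entries of ASNS, the one printed above, and in the CHAC1 entry printed there. CHAC1, which breaks down glutathione, ran from 3.39 over 10.95 to 27.52 TPM against 15.20 over 23.79 to 57.18 TPM, a difference of -1.40 (SE 0.19, limma adjusted p = 0.0075). CHAC1 was higher on later days under both compounds and the ranges overlapped, while within days U0126 was lower on 9 of 9. SESN2, a leucine sensor that restrains mTORC1, differed by -0.62, with 15.8 to 22.99 TPM under U0126 and 23.3 to 35.4 TPM under PD166866.

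The amino acid carriers of the list were lower under U0126 as well. SLC7A5, the large neutral amino acid exchanger, differed by -1.16 and SLC7A1, the cationic amino acid carrier, by -0.77. SLC3A2, the heavy chain that SLC7A5 and SLC7A11 share, differed by only -0.29 and did not pass (limma adjusted p = 0.0863). The call of SLC7A1 was lost when any 1 of 4 days was left out. Among the transcription factors, ATF4 itself differed by -0.33 (557 to 835 TPM against 638 to 1084 TPM) and CEBPB by -1.001. Both calls were lost when any 1 of 6 days was left out. CEBPG (-0.26), ATF3 (-0.55), DDIT3 (-0.29) and ATF5 (-0.038) did not pass. NUPR1, at -1.19, had a large difference but also a large spread between days and did not pass either (limma adjusted p = 0.098).

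**Figure D2:**
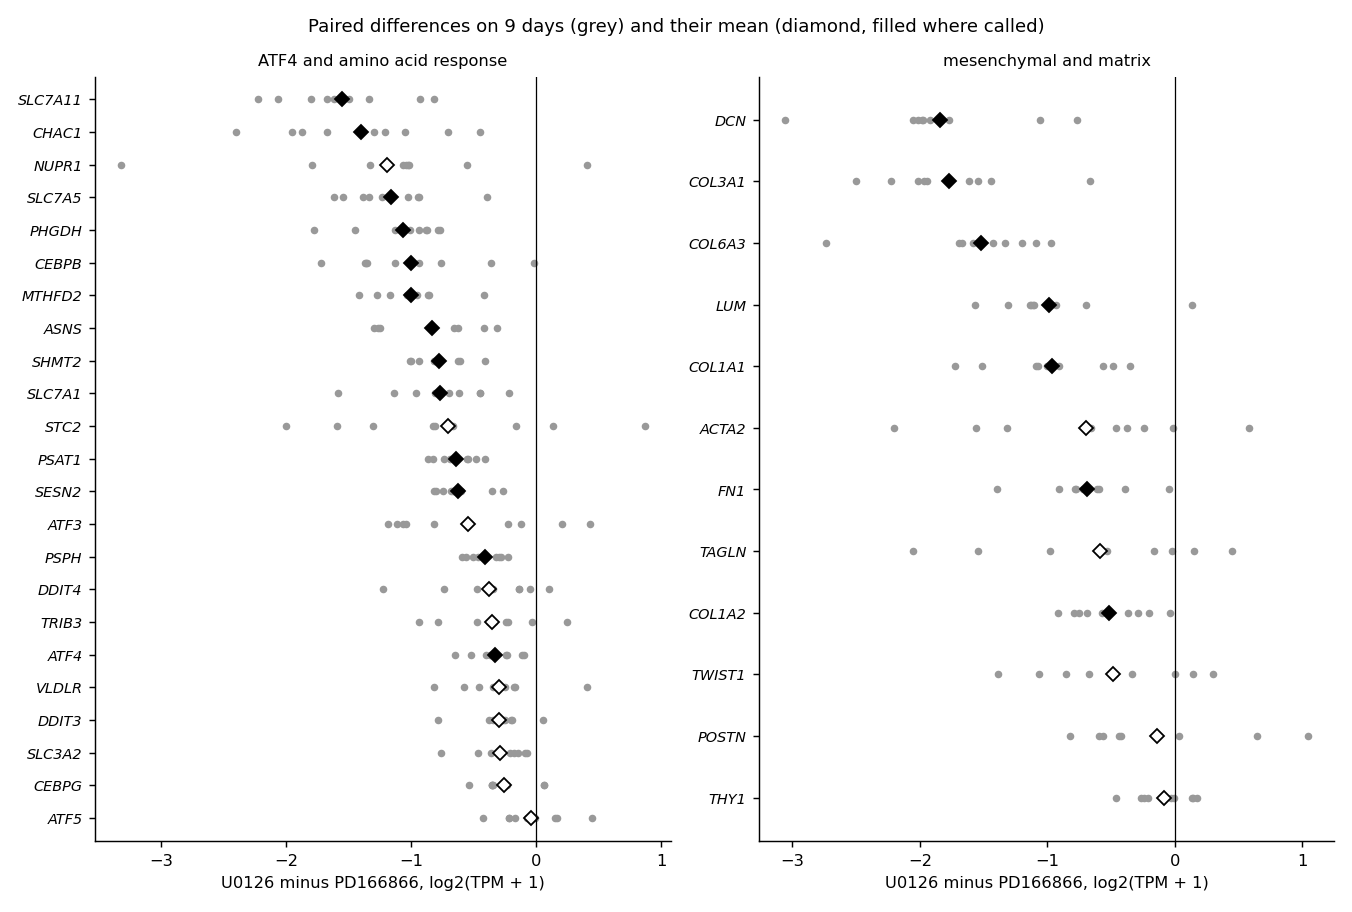
Paired differences, U0126 minus PD166866 on the log2(TPM + 1) scale (x axis), for the genes of the ATF4 and amino acid response list (left) and the mesenchymal and matrix list (right). Grey dots are the 9 shared days and diamonds their mean, filled where limma's adjusted p was under 0.05. All 23 and all 12 means lie below 0, and 13 and 7 of them are filled.

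Against the non-toxic libraries, most of the list was higher under PD166866 and more of it lower than higher under U0126. The 2 comparisons that follow share the same non-toxic libraries, so they are set side by side and not compared with each other by overlap. PD166866 had 19 of the 23 genes higher and 2 lower than non-toxic, with a list median of 0.46, where 12.3% of all genes were called higher and 10.0% lower (22.3% in either direction). U0126 had 3 higher (ASNS, ATF4 and SLC3A2) and 13 lower, with a list median of -0.16. There, 10.9% of all genes were called higher and 29.2% lower (40.1% in either direction). The count higher was thus near the share over all genes, which also had more lower than higher. SLC7A11 stood at 1.47 above non-toxic under PD166866 and at -0.08 under U0126 (limma adjusted p = 0.356). CHAC1 stood at 1.44 under PD166866 and at 0.03 under U0126 (limma adjusted p = 0.83). PHGDH stood at 0.89 under PD166866 and at -0.18 under U0126. VLDLR and DDIT4, the 2 list members lower than non-toxic under PD166866, stood at -0.18 and -0.29 under PD166866 and at -0.47 and -0.66 under U0126. Summed over the list, PD166866 lay above the non-toxic range on each shared day but day 27. On day 27 it had 2214 TPM, inside 1940 to 2369 TPM. U0126 lay below the range on days 2, 3, 10, 27 and 39, above it on day 4 and inside it otherwise. On day 39 it had 1820 TPM against 2305 to 2629 TPM. With DMSO as the only control group the counts over all genes were 749 for U0126 in place of 6549 and 55 for PD166866 in place of 3639.

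Related genes outside the list were looked at after their values had been seen. Of 20 cytosolic aminoacyl-tRNA synthetases, which load amino acids onto tRNAs, 8 were lower under U0126 than under PD166866 and 0 higher. Of all genes, 0.931% were called lower. The median difference of the 20 was -0.25, beside -0.072 over all tested genes. The largest was YARS at -0.73 (56.3 to 88.3 TPM against 86.6 to 137.4 TPM), then CARS at -0.67 (50.1 to 74.8 TPM against 81.5 to 108.7 TPM). AARS differed by -0.48 and GARS by -0.50. QARS (-0.011), RARS (-0.0071), FARSA (0.015) and HARS (0.025) did not pass and had estimates near 0. Against non-toxic, 14 of the 20 were higher and 1 lower under PD166866, beside 12.3% and 10.0% of all genes. Under U0126, 2 were higher and 9 lower, beside 10.9% and 29.2%, so the count higher was near the share over all genes. PCK2, the mitochondrial phosphoenolpyruvate carboxykinase, ran from 2.93 over 4.34 to 12.15 TPM under U0126 and from 7.99 over 16.90 to 23.52 TPM under PD166866, a difference of -1.44 (SE 0.13). ADM2, a secreted peptide of the calcitonin family, had the smallest adjusted p of the 10 named lower genes (difference -1.35, SE 0.09, limma adjusted p = 0.000189). PYCR1, the last enzyme of proline synthesis, differed by -0.63, with 48.6 to 72.6 TPM against 82.0 to 120.2 TPM, and CBS, of the transsulfuration route, by -0.69.

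The NRF2 target list, which shares SLC7A11 with the ATF4 list, had 1 of 20 genes that passed, SLC7A11, which was lower. Between the inhibitors, 0.931% of all genes were called lower. The list median was 0.021. HMOX1, haem oxygenase, had an estimate of 0.46 (limma adjusted p = 0.14), FTL, the ferritin light chain, of 0.28 (limma adjusted p = 0.0988) and NQO1, a quinone reductase, of -0.37 (limma adjusted p = 0.221). Both compounds had 12 of the 20 genes higher than non-toxic and 1 lower, beside 10.9% higher and 29.2% lower of all genes under U0126 and 12.3% and 10.0% under PD166866. The endoplasmic reticulum chaperone list had 1 of 13 genes lower, XBP1, a transcription factor of the unfolded protein response, at -0.43, and the heat shock list 0 of 10 with limma (2 at an unadjusted p under 0.05).

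Matrix genes were the second group, with lower levels under U0126 than under PD166866 and than in the non-toxic libraries. Of the 12 mesenchymal and matrix genes, 7 were lower under U0126 than under PD166866 (DCN, COL3A1, COL6A3, LUM, COL1A1, FN1 and COL1A2). Of the rest, 0 were higher and 5 did not pass, against 0.931% of all genes called lower. The list median was -0.69 beside -0.072 over all tested genes. In lysates of whole wells, fewer cells of a type and less RNA per cell cannot be told apart. The summed list ran from 478 to 4125 TPM under U0126 and from 712 to 8831 TPM under PD166866, and U0126 was lower on all 9 days. Without day as a factor and with the unpaired libraries of days 8 and 21 added, limma called 0 of the 12 (4 at an unadjusted p under 0.05), 8 of the 23 genes of the ATF4 list and 0 of the 20 genes of ERK feedback described below (3).

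COL3A1, a fibrillar collagen of soft connective tissue, ran from 21.8 over a median of 73.4 to 580 TPM under U0126 and from 86.8 over 216 to 2341 TPM under PD166866. Both compounds had their lowest COL3A1 on day 6 and their highest on day 39, so the ranges overlapped, and U0126 was lower on every shared day. The COL3A1 difference was -1.77 (SE 0.16, limma adjusted p = 0.000659). DCN, a small leucine-rich proteoglycan that binds collagen, ran from 0.61 over 9.30 to 81.9 TPM against 11.8 over 41.7 to 168.8 TPM, a difference of -1.84 (SE 0.19, limma adjusted p = 0.0016). BGN, a related proteoglycan outside the list, ran from 0.70 over 3.34 to 46.7 TPM against 8.67 over 18.3 to 60.4 TPM, a difference of -1.99 (SE 0.21, limma adjusted p = 0.0017). For COL3A1, DCN and BGN, U0126 was below the non-toxic range on all 9 days. COL6A3 differed by -1.52 and COL1A1 by -0.97, and the calls of these 5 genes held with each single day left out. Those of COL1A2 (-0.51) and FN1 (-0.69) were lost when any 1 of 5 and any 1 of 2 days, respectively, was left out, and that of IGFBP7 (-1.55) when any 1 of 8 was. THY1 (-0.085) and POSTN (-0.14), also mesenchymal markers, did not pass.

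**Figure D3:**
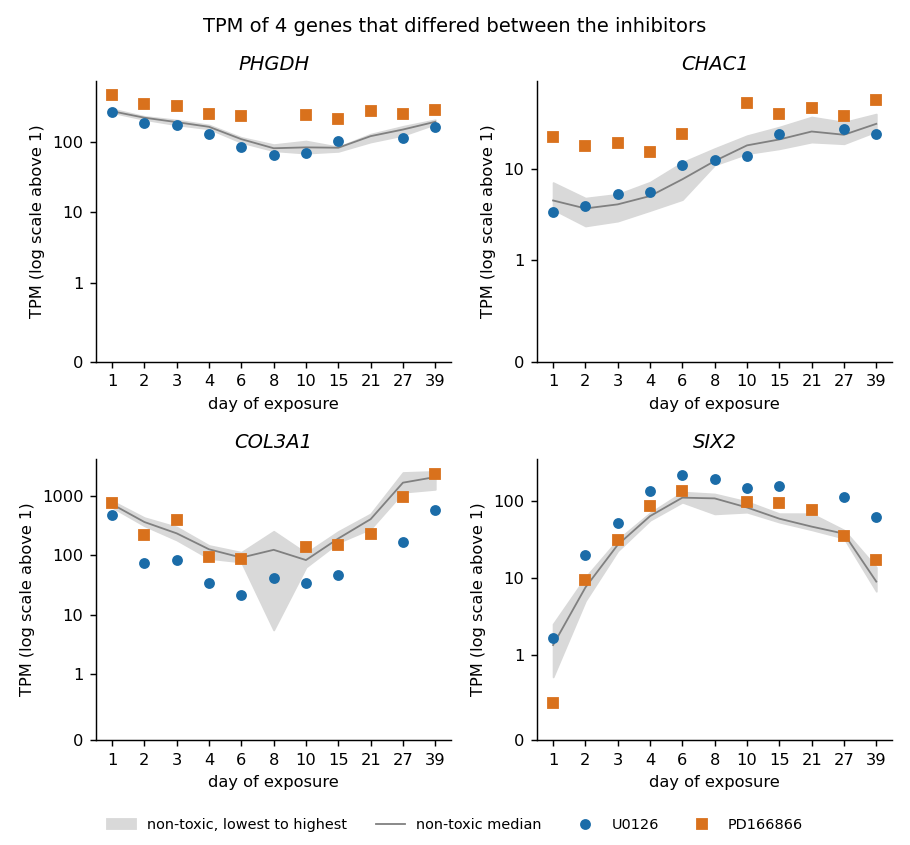
TPM (y axis, linear below 1 and logarithmic above) by day of exposure (x axis, days equally spaced) for PHGDH, CHAC1, COL3A1 and SIX2, with 1 point per library: circles are U0126, squares PD166866, and the grey band and line are the range and median of the non-toxic libraries. PD166866 stands above the band for PHGDH and CHAC1, U0126 stands under it for COL3A1 on the 9 shared days, and above it for SIX2 on 8 of them.

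Against non-toxic, 11 of the 12 genes were lower under U0126, with a list median of -0.94, and 2 of 12 under PD166866 (FN1 and POSTN), with a median of -0.10. Of all genes, 29.2% were lower under U0126 and 10.0% under PD166866, so the count under PD166866 was near the share over all genes. These 2 comparisons again share their controls. Summed over the list, PD166866 did not keep to 1 side of the non-toxic range. It lay below the range on days 2, 4, 6, 15 and 27. It lay above the range on days 3 and 10 and inside it on days 1 and 39. The sum was 2004 TPM on day 3 against 1081 to 1579 TPM, and 4058 TPM on day 27 against 5539 to 10180 TPM. U0126 lay below the range on each shared day. COL3A1 stood at -1.83 under U0126 and at -0.06 under PD166866 (limma adjusted p = 0.651), and DCN at -2.05 and -0.20 (limma adjusted p = 0.169). Families taken after the values had been seen were counted too, beside 0.931% of all genes called lower and a median of -0.072 over all tested genes. Of 43 collagen genes, 9 were lower under U0126 than under PD166866 and 0 higher (median -0.19), among them the basement membrane collagen COL4A1 at -0.99 and COL12A1 at -1.01. Of 12 laminin genes, 3 were lower and 0 higher (median -0.37), led by LAMC3 at -1.39. LAMC3 was a low gene, at 0.05 over a median of 0.16 to 13.54 TPM under U0126 and 1.01 over 2.97 to 14.60 TPM under PD166866. NID1, which links laminin to collagen in basement membranes, differed by -1.05. PDGFRB, a receptor of pericytes and fibroblasts, differed by -0.68 and its call was lost when any 1 of 6 days was left out.

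Among markers of other cell types that such a culture could hold, those of astrocytes had estimates mostly below 0 as well. Their sum ran from 281 to 2233 TPM under U0126 and from 287 to 3698 TPM under PD166866, with U0126 lower on 6 of 9 days. Of 11 astrocyte genes, 10 estimates were below 0, 8 had an unadjusted p under 0.05 and 1 was called lower. Between the inhibitors, 0.931% of all genes were called lower. The astrocyte median was -0.38 beside -0.072 over all tested genes. Against non-toxic, 9 of the 11 were lower under U0126 and 6 under PD166866, beside 29.2% and 10.0% of all genes. Glutamatergic markers had 7 of 8 estimates below 0, 4 of them at an unadjusted p under 0.05, with a median of -0.17 and 0 called by limma. Endothelial markers summed to 6.62 to 22.7 TPM under U0126 and 7.24 to 19.3 TPM under PD166866, with KDR, TEK and VWF below 1 TPM in all 18 libraries and 0 of 6 tested genes called by limma (0 at an unadjusted p under 0.05). Neural crest markers summed to 168.5 to 650 TPM and 187 to 658 TPM, with 0 of 8 called (1 at an unadjusted p under 0.05). Of 9 microglial markers, 8 stayed below 1 TPM in all 18 libraries and 3 were at 0 throughout. The part of other cell types in the matrix result was not tested.

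Among the transcripts used as readouts of ERK, SPRY4 and ETV5 were lower under U0126 than under PD166866. Of the 20 feedback inhibitors and ETS factors of the PEA3 family, 2 were lower, 0 were higher and 18 did not pass. Of all genes, 0.931% were called lower. The estimates were below 0 for 17 and the list median was -0.30 beside -0.072 over all tested genes. With the transcript length slope of the libraries as a covariate, SPRY4 alone was called, 15 estimates were below 0 and the list median was -0.16. With each library centred on its median, SPRY4 alone was called and the list median was -0.23. ETV5, an ETS factor, ran from 0.96 over 1.79 to 11.17 TPM under U0126 and from 1.00 over 5.12 to 21.77 TPM under PD166866, and its call (-0.57, limma adjusted p = 0.0424) was lost when any 1 of 8 days was left out. DUSP6, the cytoplasmic ERK phosphatase, was lower on 9 of 9 days with a difference of -0.58 that did not pass (limma adjusted p = 0.0591). DUSP4 (-0.44) and ETV4 (-0.74) did not pass, nor did SPRY2 (-0.27). EPHA2, DUSP7 and FOSL1 had estimates above 0. Against non-toxic, 18 of the 20 genes were lower under U0126 (median -0.44, all genes 29.2% lower) and 11 under PD166866 (median -0.27, all genes 10.0% lower), and 0 were higher under either. SPRY4 stood at -1.24 under U0126 and -0.15 under PD166866 (limma adjusted p = 0.0913). CCND1, cyclin D1, stood at -1.16 and -0.81, ETV5 at -1.08 and -0.52 and SPRY1 at -0.79 and -0.49.

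**Figure D4:**
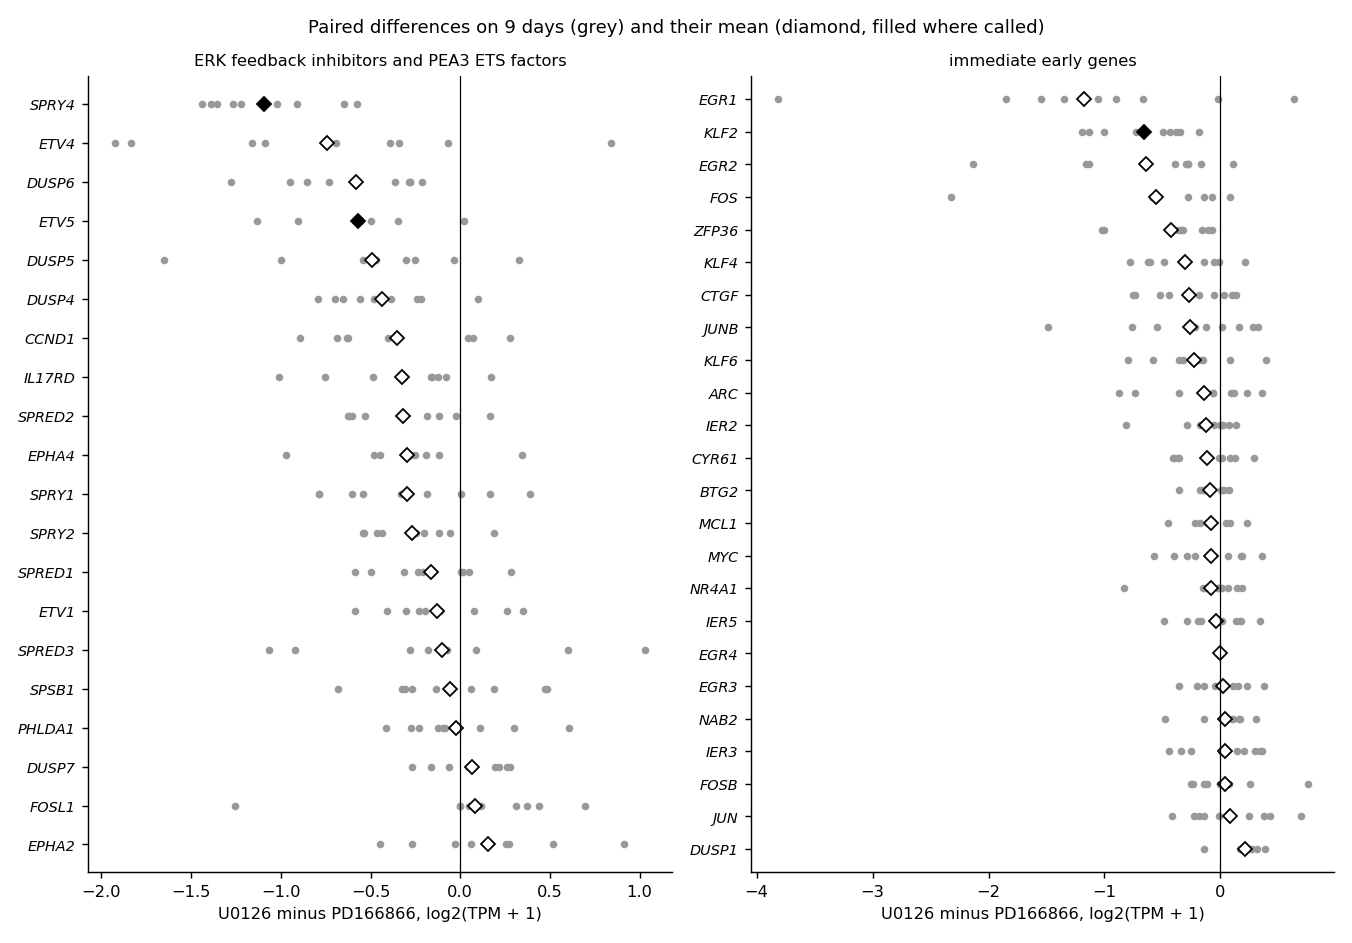
Paired differences, U0126 minus PD166866 on the log2(TPM + 1) scale (x axis), for the feedback inhibitors and ETS factors (left) and the immediate early genes (right). Grey dots are the 9 shared days and diamonds their mean, filled where limma's adjusted p was under 0.05, which holds for SPRY4, ETV5 and KLF2. The EGR1 dots spread most, from -3.82 to 0.63.

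Of 24 immediate early genes, KLF2, a Krüppel-like factor, was the only 1 called, at -0.66 (0 to 5.35 TPM under U0126, 0.27 to 7.59 TPM under PD166866), and this call was lost when any 1 of 7 days was left out. The share called lower over all genes was 0.931%. The list median was -0.10 beside -0.072 over all tested genes. With each library centred on its median, limma called 0 of the 24 (6 at an unadjusted p under 0.05) and the list median was -0.034. EGR2 (-0.64), FOS (-0.55) and ZFP36 (-0.43) had estimates below 0 that did not pass, and DUSP1 one above 0 (0.21). Against non-toxic, 16 of the 24 were lower under U0126 and 1 higher, beside 29.2% and 10.9% of all genes, and 10 were lower under PD166866, beside 10.0%. EGR1 stood at -1.54 under U0126 and -0.37 under PD166866. The connective tissue factor CTGF stood at -0.86 and -0.59, and CYR61 at -0.67 and -0.55.

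Upstream, limma called 0 of the 5 FGF receptors (0 at an unadjusted p under 0.05), 0 of 18 FGF ligands and co-receptors (5) and 0 of 24 genes of the cascade from RAS to ERK (3). FGFR1 stood at 94.0 ± 29.7 TPM under U0126 and 99.0 ± 34.3 TPM under PD166866 (SD, n = 9 days each). FGFR1 was below non-toxic under both, at -0.39 and -0.33, and below the whole non-toxic range on 9 days under each. FGF22 (-0.76) had the largest estimate of the ligands and GAB1 (-0.42), an adaptor of receptor kinases, of the cascade.

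**Figure D5:**
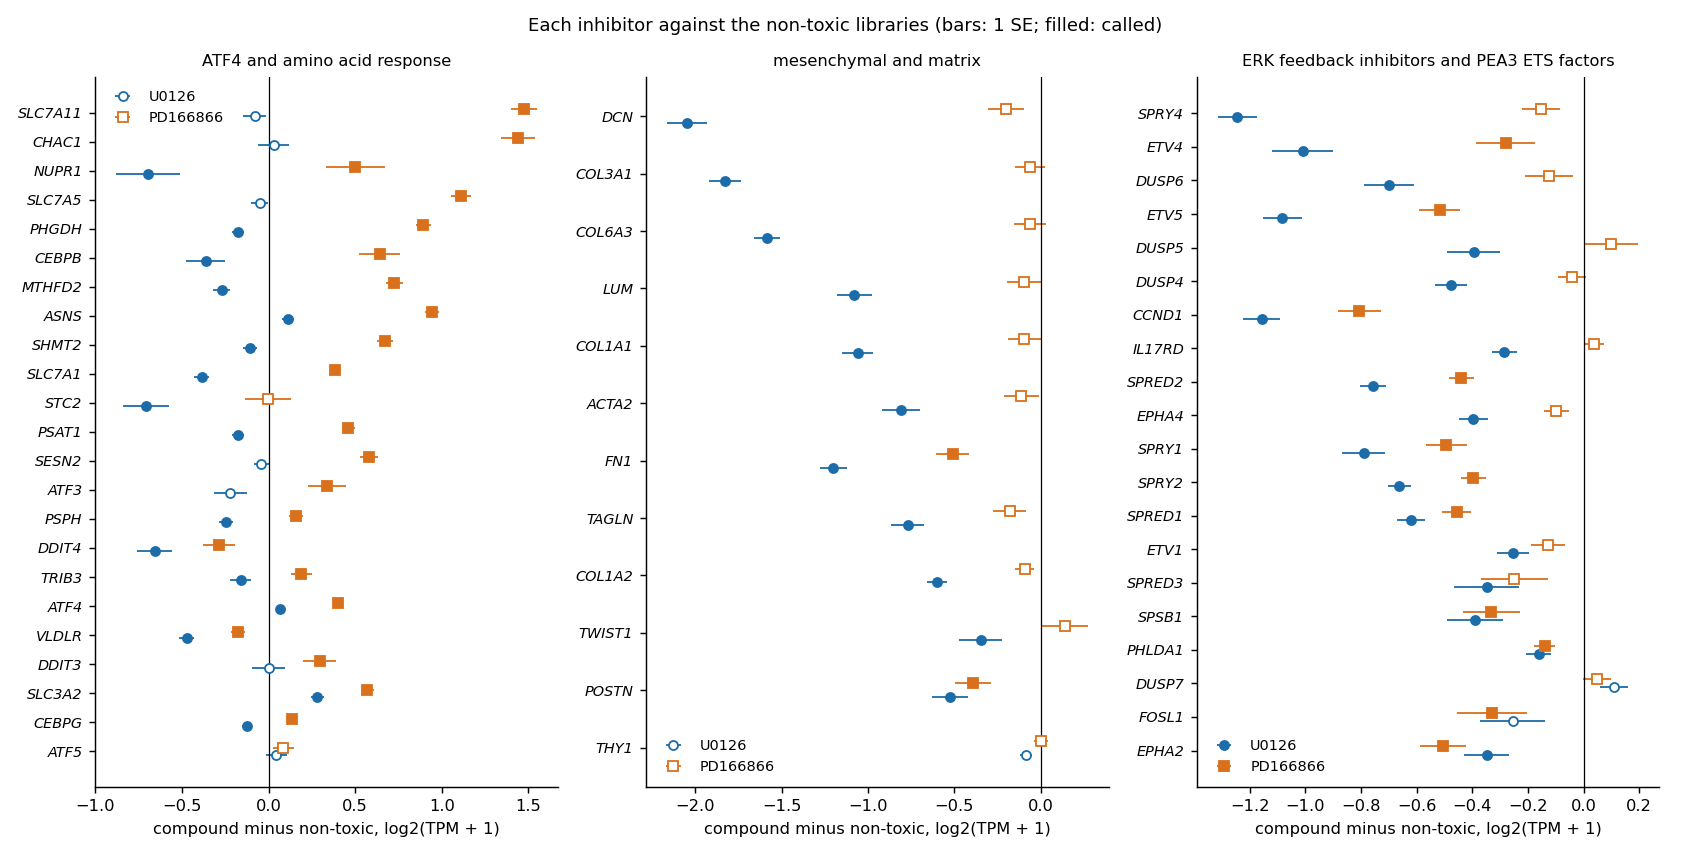
Each inhibitor minus the non-toxic libraries of the same days on the log2(TPM + 1) scale (x axis), gene by gene for the ATF4 and amino acid response, the mesenchymal and matrix and the ERK feedback lists. Circles are U0126, squares PD166866, bars 1 standard error, and filled symbols had a limma adjusted p under 0.05. PD166866 lies to the right of 0 for 19 called genes of the first list, and U0126 to the left for 11 called genes of the second and 18 of the third.

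Genes higher under U0126 were few. SIX2, a homeobox transcription factor, ran from 1.68 over a median of 115.9 to 221.1 TPM under U0126 and from 0.43 over 35.2 to 135.1 TPM under PD166866. Both compounds had their lowest SIX2 on day 1 and their highest on day 6, and on day 39 it stood at 62.2 against 17.1 TPM. The difference was 0.97 (SE 0.14, limma adjusted p = 0.00973), U0126 being higher on 9 of 9 days and above the non-toxic range on 8. RENBP, a sugar epimerase, differed by 0.82 and HSD17B14, a hydroxysteroid dehydrogenase, by 0.70. SAT1, which acetylates polyamines, differed by 0.35, with U0126 below the non-toxic range on 3 days and above it on 1, and PD166866 below it on 7. FAM19A1, which encodes a secreted neuronal protein, differed by 0.48. The calls of RENBP, SAT1 and FAM19A1 were each lost when any 1 of 7 days was left out, and that of HSD17B14 when any 1 of 5 was. The other 5 named genes, MTRNR2L1, MTRNR2L3, MTRNR2L6, MTRNR2L8 and MTRNR2L10, are near-identical nuclear copies of a mitochondrial ribosomal RNA gene, so their reads cannot be assigned with certainty. They differed by 0.41 to 0.51 and were 0.41 to 0.49 above non-toxic under U0126. The calls of MTRNR2L3, MTRNR2L6 and MTRNR2L8 were lost when any 1 of 5, 8 and 2 days was left out.

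Few markers of cell identity were called. The progenitor list summed to 3330 to 5914 TPM under U0126 and 2995 to 5641 TPM under PD166866, each of its 14 genes reaching 1 TPM in at least 1 library, and limma called 0 of 14 (2 at an unadjusted p under 0.05). It also called 0 of 14 proneural (1), 0 of 14 pan-neuronal (2), 0 of 12 synaptic (0), 0 of 7 GABAergic (1), 0 of 8 glutamatergic (4), 0 of 15 S phase (0) and 0 of 15 mitotic genes (0). On single days, with 1 library each, the S phase and mitotic lists differed in both directions. All 15 mitotic genes were lower under U0126 on days 1, 15 and 27 (medians -0.42, -0.88 and -0.62) and higher on day 39 (0.97). All 15 S phase genes were lower on days 15 and 27 (-0.37 and -0.49) and higher on day 39 (0.54). Days 15, 27 and 39 are averaged together in the late window described below. Limma called 0 of 18 sterol and fatty acid genes, whose 18 estimates were all below 0 and of which 11 had an unadjusted p under 0.05, with a median of -0.22. HMGCS1 (-0.36) and INSIG1 (-0.35) had the largest estimates there. Of the 11 astrocyte markers, 8 of which had an unadjusted p under 0.05, all lower under U0126, the gap junction gene GJA1 passed (-0.30). Its call was lost with any 1 of the 9 days left out. GFAP, the astrocyte filament, reached 804 TPM on day 39 under U0126 and 1818 TPM under PD166866, and AQP4, the water channel, 32.5 and 110.0 TPM, and neither passed over the 9 days (-0.89 and -0.61). The non-toxic libraries of day 39 had 2768 to 4211 TPM of GFAP and 218 to 336 TPM of AQP4, above both compounds.

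Among the remaining lists, VEGFA was the 1 gene of 12 hypoxia and glycolysis genes that passed, at 4.16 over a median of 4.81 to 59.7 TPM under U0126 and 9.79 over 15.3 to 298.6 TPM under PD166866. The highest value of each came from day 39, and on day 27 both stood far under the non-toxic 108.8 to 208.5 TPM, at 9.76 and 17.96 TPM. VEGFA was lower under U0126 on 9 of 9 days (-1.31, SE 0.15, limma adjusted p = 0.00296), and stood at -1.13 against non-toxic under U0126 and 0.18 under PD166866 (limma adjusted p = 0.45). On day 39, with 1 library each, all 12 genes of the list were lower under U0126 than under PD166866 (median -1.36). Against non-toxic over the 9 days, 11 of the 12 were lower under U0126 and 0 higher (list median -0.63). Under PD166866, 9 were lower and 1 higher (list median -0.44). Of all genes, 29.2% and 10.0% were lower. CYP1B1, an aryl hydrocarbon receptor target, was the 1 gene of 10 such targets that passed (-0.77), a call lost when any 1 of 6 days was left out. CYP1A1, another target of that receptor, had a median of 0.50 TPM under U0126 and 0.49 TPM under PD166866. The single calls of VEGFA and CYP1B1 stand beside 0.931% of all genes called lower between the inhibitors.

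Whether the difference changed with time was asked by setting days 10 to 39 against days 1 to 6. With both windows in 1 fit, limma called 39 genes early (0.239%), 38 lower under U0126 (0.233%) and 1 higher (0.00613%). It called 71 late (0.435%), 65 lower (0.398%) and 6 higher (0.0368%). Fitted with the libraries of 1 window only, 0 genes were called in either, with 2890 early and 1269 late at an unadjusted p under 0.05. The change between the windows itself was called for 0 genes, with 1052 at an unadjusted p under 0.05, and for 1 gene without day 6. SPRY4 differed by -1.11 early and -1.07 late, and SLC7A11 by -1.82 and -1.22 (limma adjusted p of the change 0.974 and 0.761). EGR1 differed by -0.49 early and -2.03 late, a change that did not pass (limma adjusted p = 0.757). Of the ATF4 list, 10 genes were called lower early and 6 late, with medians of -0.66 and -0.59, and of the matrix list 3 and 2, with medians of -0.82 and -0.68.

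The 20 libraries had 12989 to 14471 genes at 1 TPM or more, and the closest pair, both of day 2, was not identical. Libraries short of long transcripts were looked for by a regression on log2 transcript length of how far each library lay from the average non-toxic library of its day. The slope was -0.12 for U0126 on day 1, -0.078 for U0126 on day 15 and -0.13 for PD166866 on day 21, which is outside the pair. Without days 1 and 15, 41 genes were called, 8 of the ATF4 list and 4 of the matrix list, and the list medians were -0.61 and -0.78. With the slope as a covariate, 128 genes were called, 13 of the ATF4 list and 5 of the matrix list, with list medians of -0.60 and -0.84.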

How the data were processed

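CASAVA 1.8.2, RSEM 1.2.1, Bowtie 0.12.8 and the build hg19 are named per the submitters' processing notes, with no roles given. The authors deposited gene-level TPM, 19084 symbols in 414 columns that sum to 999999 to 1000001. Counts were not analysed here, so read depth is unknown and no interval was computed from it. TPM is a share of the library, so a rise of some genes lowers the rest.

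Groups, doses and days are those of the labels. The 16318 genes that reached 1 TPM in 5 or more of the libraries were tested with limma 3.58.1 in R 4.3.3 on log2(TPM + 1), which understates changes of low genes. The fit had a mean-variance trend and day as a factor, the block that pairs the wells of a day, and Benjamini-Hochberg adjusted p under 0.05 was called. Non-toxic comparisons used compound as a random block (correlation 0.00601 and 0.0156). On simulated data, limma recovered 97% of planted log2 differences of 1 and 75% of those of 0.5 in 16318 genes, with 10 unplanted genes called. Wells are not stated to be separate cultures, so p-values of the paired fit measure the spread between these days. In the non-toxic comparisons, 9 libraries of 1 compound were set against 127. Those p-values therefore rest mostly on the spread among non-toxic libraries.

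Named are the 10 largest called differences each way with at least 5 TPM in either compound and the same sign on at least 8 days, SPRY4, EGR1 and SLC7A11, called members of the pathway lists, and the largest members of the other lists. Genes named beyond this rule were chosen after their values were seen. The members and lists were chosen with earlier results of these data known. Figures were drawn with matplotlib 3.10.9.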

Additional observations from a re-analysis of the deposited data

Results flagged for a closer look

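In 88 sets of 9 or 10 values, 3 held a value set apart from the rest by Dixon's criterion at the 95% level, which chance alone reaches in about 1 of 20 sets. The paired difference of BGN on day 1 was -0.36, with a median of -2.30 on the other days. The U0126 library of that day also had the length slope of -0.12. The paired difference of COL6A3 on day 3 was -2.74, with a median of -1.38 on the other days. The transcript length slope of PD166866 on day 21 was -0.13, with a median of 0.0082 in the other PD166866 libraries, and this library entered no paired difference.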

How the results depend on the processing

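The number of genes differing between U0126 and PD166866 was 172. In its place 141 and 150 were called with pseudocounts of 0.1 and 5, 172 without the filter on low values, 201 with a filter of at least 5 TPM in 5 of the 18 libraries, 133 with each library centred on its median, 211 without the trend and 128 with the length slope as a covariate. Without the replicate block, using all 10 and 10 libraries, 22 were called, all lower. With the spread shared with the non-toxic libraries, 2924 were. Leaving out 1 day gave 77 to 333, leaving out day 1 as the day with a length slope below -0.1 gave 98, and leaving out days 1 and 15, chosen after seeing the data, gave 41. With days 1 to 6 only and days 10 to 39 only, limma called 0 and 0 genes (2890 and 1269 at an unadjusted p under 0.05), fits with fewer samples. The late minus early count was 0 to 1 with 1 day left out. With DMSO as the only control, U0126 had 749 calls and PD166866 had 55. The difference of ATF5 changed sign to 0.031 under centring and ran from -0.0987 to 0.011 with 1 day left out, FGFR1 changed to 0.0062 under centring and POSTN to 0.070 on days 1 to 6; none of these 3 genes was called. Of 54 called genes followed one by one, 16 stayed called without the block, 50 under centring, 38 with the length covariate and 27 without days 1 and 15. The causes were not tested. Read depth is unknown, so what it limits was not measured.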

Other observations

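The 2 libraries outside the paired days gave single values. On day 8, U0126 had 3.51 TPM of SLC7A11, 12.59 of CHAC1, 65.2 of PHGDH and 197.0 of SIX2. On day 21, PD166866 had 8.90 TPM of SLC7A11, 46.5 of CHAC1, 271.5 of PHGDH and 76.5 of SIX2. The PD166866 library of day 21 had a transcript length slope of -0.13. Slopes of the non-toxic libraries of day 8 reached down to -0.36, and their genes at 1 TPM or more down to 11861. The non-toxic libraries spanned 0.42 to 2.05 TPM of SLC7A11 on day 8 and 3.79 to 5.53 on day 21, so both inhibitors stood above them in these wells, and 74.3 to 90.5 and 98.8 to 127.5 TPM of PHGDH, below which U0126 stood on day 8 and above which PD166866 stood on day 21.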
